A study of Saccharomyces cerevisiae with 3 samples.

Results

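The 34 genes described here encode the aminoacyl-tRNA synthetases of Saccharomyces cerevisiae, budding yeast, and ARC1, their cofactor, out of 5539 genes with a named spot on the arrays. They were taken by gene symbol from a list, and all 34 were found, each with 2 spots. The list holds 20 genes for proteins that work in the cytosol, or in the cytosol and the mitochondria, and 14 for enzymes of the mitochondria alone. Wild-type cells that had spent 1 h in 0.2 mM arsenite, As(III), were compared with untreated wild-type cells by hybridising RNA of both to the same array. There were 3 such arrays, with treated RNA in Cy5 on replicates 1 and 2 and in Cy3 on replicate 3. The labels used here name no strain background or mating type, nor whether each array had its own pair of cultures. The p-values thus rest only on the spread between these arrays, estimated in part over all genes, and that spread may be technical.

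All values are log2 ratios of treated over untreated cells, with each array centred on its median over genes, and means are given ± SD over 3 arrays. Before centring, the medians over genes were -0.10, 0.52 and -0.14 on replicates 1, 2 and 3, so a centred value states a change relative to the typical gene. Treated over untreated is the likely direction and not a stated one, since the values were read as Cy5 over Cy3, and with the opposite ratio every sign below would turn. The logarithm was read as base 2, and with a natural logarithm all log2 values would be larger by a constant factor, and the folds would be larger too. Duplicate spots correlated across genes with r of 0.939, 0.926 and 0.936 on the 3 arrays. A gene is said to have risen or fallen where the limma test across all genes gave an adjusted p under 0.05.

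Each synthetase joins 1 amino acid to the tRNAs that carry it, and the charged tRNA then brings the amino acid to the ribosome. Yeast keeps separate nuclear genes for many of the mitochondrial enzymes, which charge the tRNAs used to translate the few messages of mitochondrial DNA. Some genes serve both compartments by making a longer and a shorter form of the protein. Synthetases fall into class I and class II, which have unrelated catalytic folds, and the amount of the cytosolic enzymes is tied to the demand of growing cells for protein synthesis.

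Transcripts of the cytosolic and dual enzymes fell, whereas those of the mitochondrial enzymes, with MSE1 as the exception, did not pass the test. Of the 20 cytosolic or dual genes, 16 fell and 0 rose, where 18.1% of all genes fell and 14.5% rose. Of the 14 mitochondrial genes, 1 fell and 0 rose. In all, 17 of the 34 genes passed in either direction, where 32.7% of all genes did. At an unadjusted p under 0.05, limma put the same 16 and 1 lower, and 0 cytosolic or dual and 3 mitochondrial genes higher. By that measure 1234 of all 5539 genes were lower and 1103 were higher. The median log2 ratio was -0.97 over the cytosolic or dual genes and 0.07 over the mitochondrial genes, beside 0.01 over all genes. The cytosolic or dual median corresponds to a 1.96-fold lower transcript ratio.

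The separation of the 2 sets was seen on each array. The medians of the cytosolic or dual genes were -0.88, -0.95 and -0.92 on replicates 1, 2 and 3, and those of the mitochondrial genes were 0.04, 0.12 and 0.04. The cytosolic or dual median thus lay below the mitochondrial one by a difference of -0.92, -1.08 and -0.96 on the 3 arrays, which exceeds the SD of 0.08 between arrays. This difference was not tested, because a score over genes chosen with results known gets no p here, and the smallest p that an exact sign-flip test of 3 arrays allows is 0.25. In the cytosolic or dual set, 17 genes were below 0 on all 3 arrays, against 29.7% of all genes, and 0 were above 0 on all 3. In the mitochondrial set, 4 genes were below 0 and 5 above 0 on all 3 arrays, where 29.2% of all genes were above 0 on all 3.

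**Figure D1:**
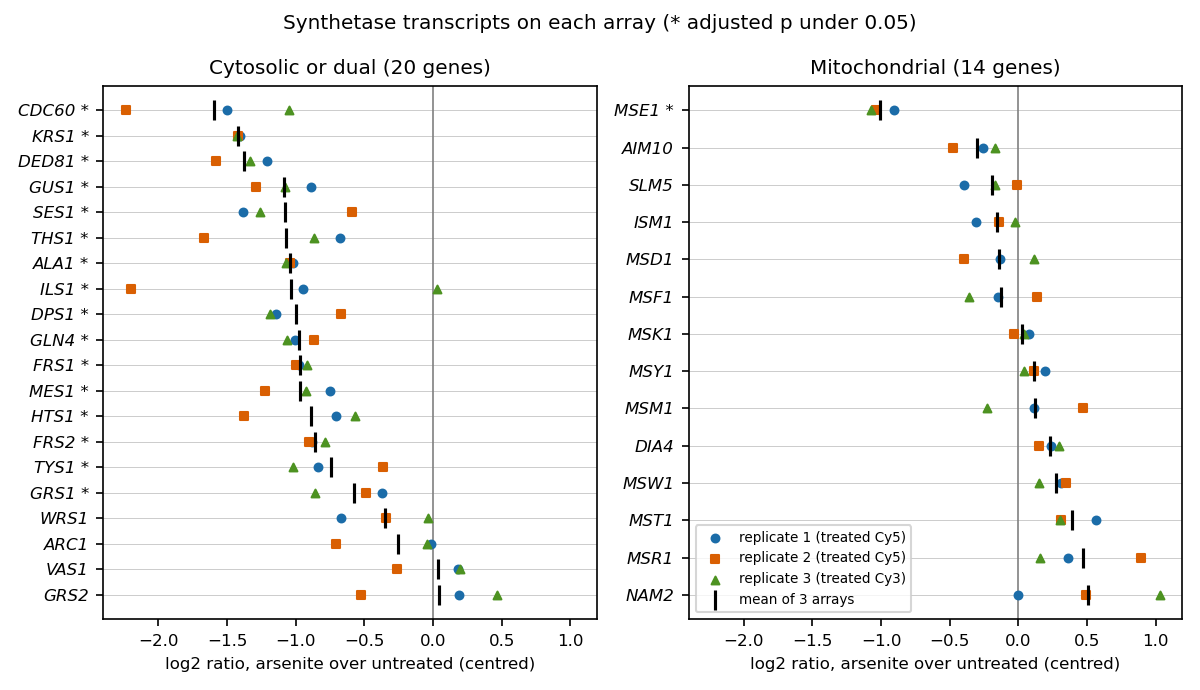
Centred log2 ratios (arsenite over untreated) of the 34 genes on each of 3 arrays, with bars at the mean and asterisks for adjusted p under 0.05. The 16 cytosolic or dual genes that fell have means from -1.59 to -0.57, and 13 of the 14 mitochondrial genes have means from -0.30 to 0.51.

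CDC60, the cytosolic leucyl-tRNA synthetase, fell most. Its log2 ratio was -1.50, -2.24 and -1.05 on replicates 1, 2 and 3, a mean of -1.59 ± 0.60 and a 3.02-fold fall (limma adjusted p = 0.000115). Only 2.8% of all genes had a lower mean. KRS1, the lysyl-tRNA synthetase, had -1.40, -1.42 and -1.43, a mean of -1.42 ± 0.01 (adjusted p = 4.53e-05), so that its 3 arrays were nearly the same. DED81, the asparaginyl-tRNA synthetase, had -1.21, -1.58 and -1.34, a mean of -1.37 ± 0.19 (adjusted p = 7.22e-05). For all 3 genes every array lay below -1.

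A second group fell about 2-fold. GUS1, the glutamyl-tRNA synthetase, had -0.89, -1.29 and -1.08 (mean -1.09 ± 0.20, adjusted p = 0.000503). SES1, the seryl-tRNA synthetase, had -1.38, -0.59 and -1.26 (mean -1.08 ± 0.43, adjusted p = 0.00109), with replicate 2 the highest. THS1, the threonyl-tRNA synthetase, had -0.68, -1.67 and -0.87 (mean -1.07 ± 0.53, adjusted p = 0.00175), with replicate 2 the lowest. Replicate 2 thus stood on opposite sides of the other arrays for SES1 and THS1. DPS1, which charges aspartate, had -1.14, -0.67 and -1.19 (mean -0.998 ± 0.29, adjusted p = 0.00115). GLN4, which charges glutamine, had -1.003, -0.87 and -1.06 (mean -0.98 ± 0.10, adjusted p = 0.000891). Glutamine has no mitochondrial synthetase of its own in yeast, since the mitochondria make their glutaminyl-tRNA by converting a glutamate already attached. MES1, which charges methionine, also supplies the initiator tRNA of translation. Its values were -0.75, -1.22 and -0.92 (mean -0.97 ± 0.24, adjusted p = 0.00127).

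ILS1, the isoleucyl-tRNA synthetase, was the least repeatable member. Its log2 ratios were -0.95, -2.20 and 0.03, a mean of -1.04 ± 1.12 (adjusted p = 0.0210), and it did not pass without replicate 2 (mean -0.46, adjusted p = 0.119). Its SD compares with a median SD of 0.25 over the 16 that fell and 0.28 over all genes. ILS1 was also the 1 gene of the 16 that was not below 0 on every array. Its duplicate spots differed by at most 0.22, so the spread lay between arrays and not between spots. TYS1, the tyrosyl-tRNA synthetase, had -0.84, -0.37 and -1.02 (mean -0.74 ± 0.34, adjusted p = 0.00965). It was below 0 on every array, but it did not pass without replicate 1 (mean -0.69, adjusted p = 0.124) or with no centring (mean -0.65, adjusted p = 0.0964).

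Phenylalanyl-tRNA synthetase is the cytosolic enzyme built from unlike subunits, and the transcripts of both subunits fell to nearly the same extent. FRS1, the beta subunit, had -0.98, -0.998 and -0.92 (mean -0.97 ± 0.04, adjusted p = 0.000915), and FRS2, the alpha subunit, had -0.88, -0.91 and -0.79 (mean -0.86 ± 0.06, adjusted p = 0.00218). The difference of FRS1 from FRS2 was -0.10, -0.09 and -0.13 on the 3 arrays. The subunits lay within 0.13 of each other on each array.

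Of the transcripts for the Arc1 complex, those of MES1 and GUS1 fell and that of ARC1 did not pass. ARC1 is a tRNA-binding cofactor that holds MES1 and GUS1 in a cytosolic complex and raises their affinity for tRNA. It had -0.02, -0.71 and -0.05 (mean -0.26 ± 0.39, adjusted p = 0.348) and did not pass, with replicate 2 lower than the other arrays. ARC1 lay above MES1 by 0.73, 0.52 and 0.88 on replicates 1, 2 and 3, a mean difference of 0.71 ± 0.18. It lay above GUS1 by 0.87, 0.58 and 1.03, a mean difference of 0.83 ± 0.23. Both differences had 1 sign on all 3 arrays and exceeded their SD; they were chosen with the values known and were not tested.

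Of the 4 dual genes, ALA1, HTS1, VAS1 and GRS1, 3 fell, where 18.1% of all genes fell. The call for GRS1, described below, was lost in several settings. ALA1, for alanine, makes its mitochondrial form from a start codon other than AUG, and it had -1.02, -1.04 and -1.07 (mean -1.04 ± 0.03, adjusted p = 0.000525). HTS1, for histidine, had -0.71, -1.38 and -0.57 (mean -0.89 ± 0.43, adjusted p = 0.00432). VAS1, for valine, had 0.18, -0.26 and 0.20 (mean 0.04 ± 0.26, adjusted p = 0.893). HTS1 and VAS1 both make their mitochondrial forms from longer transcripts, which the spots do not separate from the shorter ones. VAS1 stood apart from HTS1, with values around 0 on each array, and its sign changed with several settings.

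For glycine, GRS1 fell and its paralog GRS2 did not pass. GRS1 provides the glycyl-tRNA synthetase of both compartments, and it had -0.37, -0.49 and -0.86 (mean -0.57 ± 0.25, adjusted p = 0.0305). This was the smallest fall that passed, and the call was lost when replicate 1 (adjusted p = 0.139) or replicate 3 (0.142) was left out, with no centring (0.254) and on the last spot alone (0.0504). GRS2, a paralog of GRS1 that cells in ordinary growth do not need, had 0.19, -0.52 and 0.47 (mean 0.04 ± 0.51, adjusted p = 0.894). Its sign differed between arrays. GRS2 minus GRS1 was 0.56, -0.03 and 1.33, a mean of 0.62 ± 0.68 that did not exceed its SD, and paralogs may share hybridisation on these spots. WRS1, the tryptophanyl-tRNA synthetase, had -0.67, -0.34 and -0.04 (mean -0.35 ± 0.32, adjusted p = 0.184), below 0 on every array but not past the test.

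**Figure D2:**
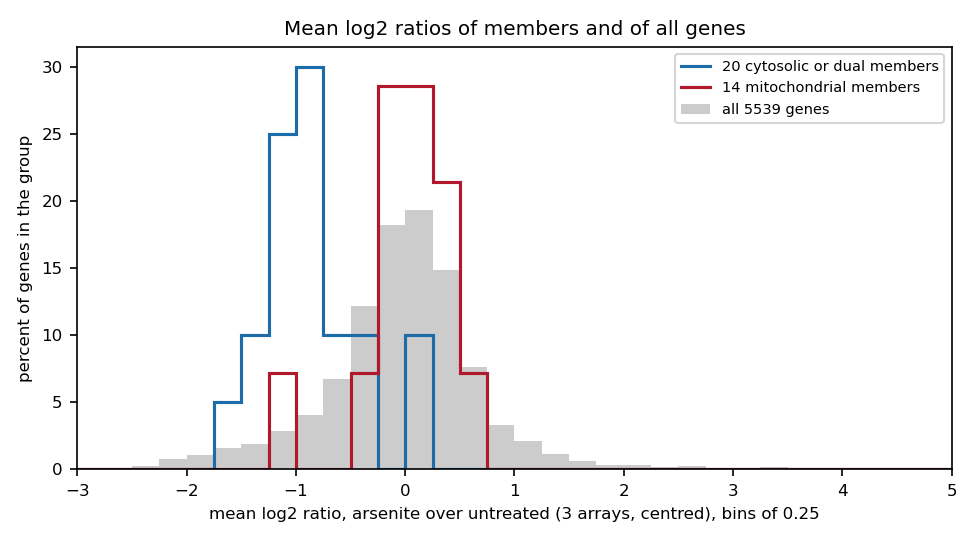
Share of genes, in percent, by mean centred log2 ratio in bins of 0.25, for all 5539 genes (grey bars), the 20 cytosolic or dual genes and the 14 mitochondrial genes (lines). The cytosolic or dual genes peak near their median of -0.97, and the mitochondrial genes lie around 0.07 with MSE1 apart at -1.01.

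The fall was of similar size in both classes of enzyme. Of the cytosolic or dual enzymes, 6 of 8 in class I and 10 of 11 in class II fell, where 18.1% of all genes fell. The class medians were -0.97 and -0.998. Of all 20 cytosolic or dual genes, 8 had a mean at or below -1, as did 8.34% of all genes. The means of the 16 that fell had an SD of 0.25 among genes, close to their median SD of 0.25 among arrays. Differences between neighbours in this order were not tested. The 4 that did not pass, WRS1, ARC1, VAS1 and GRS2, had means from -0.35 to 0.04.

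Among the mitochondrial enzymes, MSE1, the glutamyl-tRNA synthetase of the organelle, was the gene that fell. It had -0.91, -1.04 and -1.07 on the 3 arrays (mean -1.01 ± 0.09, adjusted p = 0.000722), a 2.01-fold fall. Every array put MSE1 below the other 13 mitochondrial genes, whose lowest mean was that of AIM10, the likely prolyl-tRNA synthetase (-0.26, -0.47 and -0.17, mean -0.30 ± 0.16, adjusted p = 0.223). The spots of MSE1 differed by at most 0.15. Within its pair, MSE1 differed from GUS1 by -0.02, 0.25 and 0.01, which is within the spread between arrays. Among the 12 amino acids with a cytosolic and a mitochondrial member, glutamate was thus the amino acid for which the transcripts of both compartments fell.

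The other mitochondrial genes spread around 0. SLM5, for asparagine, had -0.40, -0.01 and -0.17 (mean -0.19 ± 0.20), and ISM1, for isoleucine, had -0.31, -0.14 and -0.03 (mean -0.16 ± 0.14). MSD1, for aspartate, had -0.14, -0.40 and 0.11 (mean -0.14 ± 0.26). MSF1, a single-chain enzyme for phenylalanine unlike the cytosolic one, had -0.15, 0.13 and -0.36 (mean -0.13 ± 0.25). Both MSD1 and MSF1 changed sign between arrays. MSK1, for lysine, which also takes part in the import of a cytosolic lysine tRNA, had 0.08, -0.03 and 0.04 (mean 0.03 ± 0.06). MSY1, for tyrosine, had 0.20, 0.12 and 0.04 (mean 0.12 ± 0.08), and MSM1, for methionine, had 0.11, 0.47 and -0.23 (mean 0.12 ± 0.35). The adjusted p of these 7 genes lay between 0.450 and 0.924.

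The highest means belonged to mitochondrial genes that did not pass. NAM2, the leucyl-tRNA synthetase that is also needed to splice mitochondrial introns, had 0.00, 0.49 and 1.03 (mean 0.51 ± 0.52, adjusted p = 0.0853). MSR1, for arginine, had 0.36, 0.89 and 0.16 (mean 0.47 ± 0.38, adjusted p = 0.0852). These genes passed in 1 alternative each, NAM2 when a dye term was fitted (mean 0.64, adjusted p = 0.00644) and MSR1 without replicate 3 (mean 0.63, adjusted p = 0.0252). MST1, for threonine, had 0.57, 0.31 and 0.30 (mean 0.39 ± 0.15, adjusted p = 0.115). MSW1, for tryptophan, had 0.31, 0.35 and 0.15 (mean 0.27 ± 0.11, adjusted p = 0.268), and DIA4, the likely mitochondrial seryl-tRNA synthetase, had 0.24, 0.15 and 0.29 (mean 0.23 ± 0.07, adjusted p = 0.353). MSR1, MST1, MSW1, DIA4 and MSY1 were the 5 mitochondrial genes above 0 on all 3 arrays. The spots of DIA4, MSM1 and MST1 differed by up to 0.68, 0.66 and 0.66 on an array, and those of MSK1, MSF1 and AIM10 by up to 0.52, 0.51 and 0.49. All of these exceed the gap of any cytosolic or dual gene (at most 0.44).

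A comparison within an amino acid sets the enzymes of both compartments side by side. The list has a cytosolic and a mitochondrial member for 12 amino acids, and in 10 of them the cytosolic transcript was the lower on all 3 arrays. The median of the 12 differences, cytosolic minus mitochondrial, was -0.99, -1.24 and -1.11 on replicates 1, 2 and 3. Leucine showed the widest gap, with CDC60 minus NAM2 at -1.49, -2.73 and -2.08 (mean -2.10 ± 0.62). The most even gap was that of lysine, with KRS1 minus MSK1 at -1.48, -1.39 and -1.47 (mean -1.45 ± 0.05). Threonine had a mean difference of -1.46 ± 0.45, serine of -1.30 ± 0.49, asparagine of -1.18 ± 0.38 and methionine of -1.08 ± 0.54.

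Smaller gaps were found for the other amino acids. Tyrosine had a mean difference of -0.86 ± 0.33, aspartate of -0.86 ± 0.53, phenylalanine of -0.79 ± 0.30 and tryptophan of -0.62 ± 0.40. These lay beyond their SD and had 1 sign on all 3 arrays. Isoleucine (-0.88 ± 1.08) and glutamate (-0.08 ± 0.15) were the amino acids whose difference lay within its SD, the first through the spread of ILS1 and the second because both genes fell. Tryptophan is the pair in which neither gene passed the test.

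**Figure D3:**
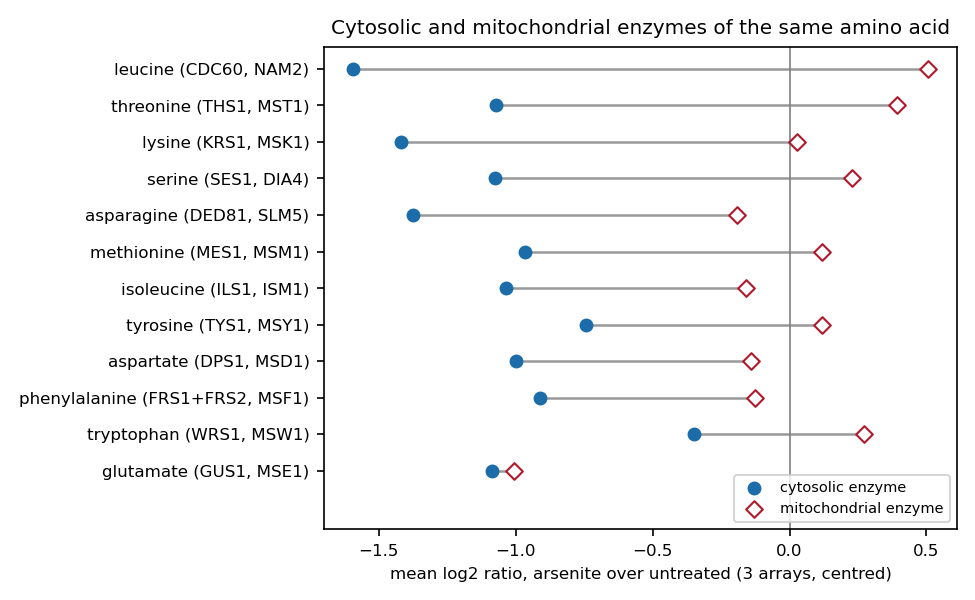
Mean centred log2 ratio over 3 arrays for the cytosolic enzyme (filled circles, mean of both subunits for phenylalanine) and the mitochondrial enzyme (open diamonds) of 12 amino acids. The gap is widest for leucine, at -2.10, and smallest for glutamate, at -0.08.

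Replicate 2 ranked the cytosolic genes differently from the other arrays. Across the 20 cytosolic or dual genes, Pearson's r was 0.812 between replicates 1 and 3, 0.517 between 1 and 2, and 0.254 between 2 and 3. Over the 14 mitochondrial genes, r was 0.803 for replicates 1 and 2, 0.655 for 1 and 3 and 0.649 for 2 and 3. Genes are not independent replicates, and these values describe how the arrays repeat. CDC60, ILS1, THS1 and HTS1 were among those lowest on replicate 2, and SES1, DPS1 and TYS1 among those highest. Replicates 1 and 2 share a dye orientation, and replicate 3 has the dyes exchanged.

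Of the charging enzymes that the list leaves out, those of the cytosol fell and those of the mitochondria did not pass. The synthetases that serve the cytosol for cysteine (CRS1), proline (YHR020W) and arginine (YDR341C) all fell, with means of -1.39 ± 0.11, -1.38 ± 0.26 and -0.74 ± 0.36 (adjusted p = 5.68e-05, 8.53e-05 and 0.0102). The call for YDR341C was lost with no centring (adjusted p = 0.0972). Mitochondria convert glutamate attached to a tRNA to glutamine with the enzyme made of PET112, HER2 and GTF1. Their means were 0.60 ± 0.72, 0.38 ± 0.05 and 0.03 ± 0.24. None of the 3 subunits passed (limma adjusted p = 0.0723, 0.123 and 0.928). At an unadjusted p under 0.05 in the same test, 1 of them was higher, as were 1103 of all 5539 genes. GUS1 and MSE1, listed here as the cytosolic and mitochondrial glutamyl-tRNA synthetases, both fell. Which of them makes the substrate of this enzyme was not examined. Of the 6 charging genes that the list leaves out, 3 fell and 0 rose. PET112 passed without replicate 2 (mean 0.93, adjusted p = 0.00216) and when a dye term, which rests on replicate 3 alone, was fitted (mean 0.80). YHR020W is the chromosomal neighbour of DED81, and their ratios differed by 0.00, 0.09 and -0.08 on the 3 arrays. In all, 31 measured genes that are not members adjoin the 16 cytosolic or dual genes that fell, and 9 of them fell and 4 rose, with a median of -0.05, where 18.1% of all genes fell and 14.5% rose.

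Transcripts for elongation in the cytosol fell in part. Of 9 genes for cytosolic elongation factors, 5 fell and 0 rose, with a list median of -1.26, where 18.1% of all genes fell and 14.5% rose. EFT1, elongation factor 2, had -1.62 ± 0.91, TEF4, a subunit of the exchange factor for elongation factor 1, had -1.50 ± 0.12, and YEF3, elongation factor 3, had -1.32 ± 0.20. TEF1 and TEF2, for the elongation factor 1 that carries charged tRNA, did not pass (-0.12 ± 0.45 and -0.13 ± 0.32, limma adjusted p = 0.682 and 0.633). EFT1 and EFT2 are near-identical copies, and YEF3 and HEF3 are close paralogs, so their spots may share hybridisation. In mitochondria, TUF1, the elongation factor that delivers charged tRNA, fell (-0.59 ± 0.15, adjusted p = 0.0227), and MEF2, an elongation factor family member, rose (1.03 ± 0.28, adjusted p = 0.000911). The other 4 of the 6 mitochondrial translation factors did not pass, and the list median was 0.02. The call for TUF1 was lost without replicate 1 (adjusted p = 0.153) and with no centring (adjusted p = 0.233).

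Sensing of uncharged tRNA runs through the kinase Gcn2 and its partners Gcn1 and Gcn20, which raise translation of the activator Gcn4, a regulator of amino acid synthesis and of some synthetase genes. Of 6 genes of this list, 4 fell and 0 rose, with a median of -0.79, where 18.1% of all genes fell and 14.5% rose. The 4 include HRI1 (-0.78 ± 0.28, limma adjusted p = 0.00610), whose part in this sensing was not established here. The transcript of GCN4 had -1.08, -1.09 and -1.27 (mean -1.15 ± 0.11, adjusted p = 0.000267), and GCN1 and GCN20 had -1.01 ± 0.50 and -0.80 ± 0.29. GCN4 is controlled mainly in translation, which the arrays do not measure. GCN2 itself had 0.35, -0.13 and 0.96 (mean 0.39 ± 0.54, adjusted p = 0.189). GCN2 passed without replicate 2 (adjusted p = 0.0175) and when a dye term, which rests on replicate 3 alone, was fitted (mean 0.53). With no centring 2 of the 6 fell, and the count over all genes that fell went from 1004 to 603.

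Genes that make and modify tRNA had list medians nearer to 0 than the cytosolic synthetases, with members on both sides. Of 46 measured tRNA modification genes, 19 fell and 3 rose, with a median of -0.28, where 18.1% of all genes fell and 14.5% rose. NCL1, a tRNA cytosine methyltransferase, had -1.46 ± 0.29, ELP3, the catalytic subunit of Elongator, -1.30 ± 0.05, and TRM1, a guanine dimethyltransferase, -1.15 ± 0.24. UBA4, of wobble uridine thiolation, rose (0.89 ± 0.34), as did IKI1, an Elongator subunit (0.85 ± 0.29), and TRM12, of wybutosine synthesis (0.50 ± 0.14, adjusted p = 0.0493). The call for TRM12 was lost in 6 of the 11 alternatives, with adjusted p up to 0.362 without replicate 1. Without replicate 1, and likewise with no centring, 11 modification genes fell; in these settings the count over all genes went from 1004 to 602 and 603.

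Of 14 tRNA end-processing genes, 3 fell and 0 rose, with a median of -0.20, a share near the 18.1% of all genes that fell. RPP1, a subunit of RNase P, had -1.01 ± 0.30, TRZ1, the tRNA 3′ endonuclease, -0.86 ± 0.20, and LHP1, the La protein, -0.84 ± 0.41. Of 10 tRNA splicing and export genes, 3 fell and 0 rose, with a median of -0.08. These were LOS1, the tRNA exportin (-0.71 ± 0.13), CEX1, which receives exported tRNA (-0.61 ± 0.11), and MTR10, the tRNA importer (-0.55 ± 0.21). Without replicate 1, 1 end-processing gene and 0 splicing and export genes fell. RPR2, a subunit of RNase P, passed as a rise without replicate 2 (adjusted p = 0.0154). It also passed when a dye term, which rests on replicate 3 alone, was fitted (mean 0.64). With no centring 0 splicing and export genes fell.

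**Figure D4:**
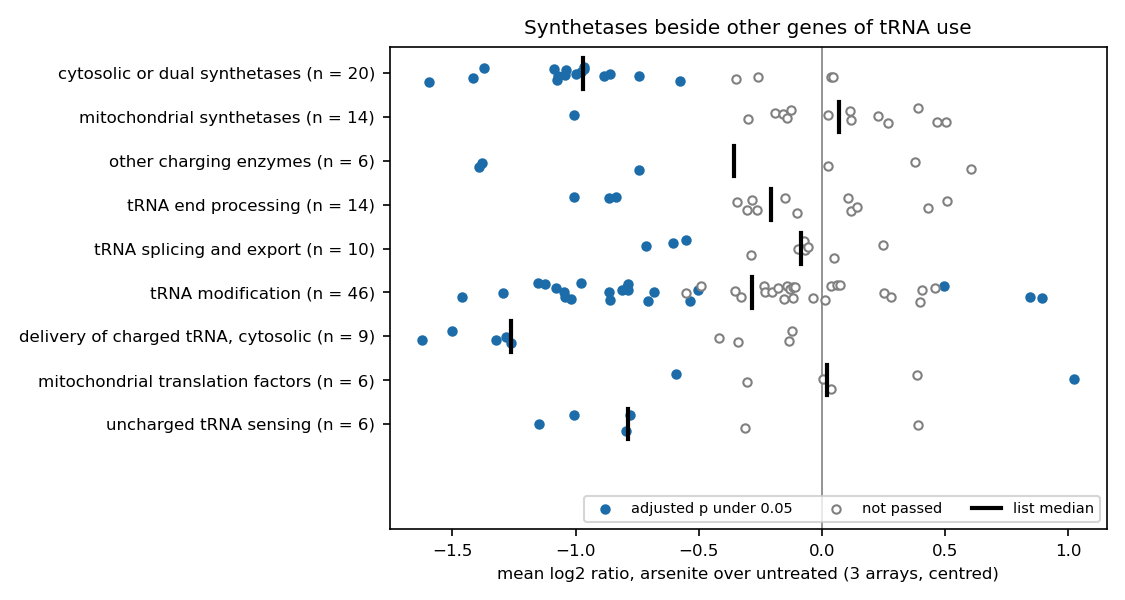
Mean centred log2 ratio over 3 arrays for each gene of the 2 synthetase sets and of 7 lists of tRNA use, filled where the adjusted p was under 0.05, with bars at list medians and heights spread at random. The medians lie at -0.97 for cytosolic or dual and 0.07 for mitochondrial synthetases, between -0.36 and -0.08 for the lists of other charging enzymes and of tRNA processing, export and modification, and at -1.26 for cytosolic elongation factors.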

How the data were processed

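For 13056 spots and 3 arrays, the authors deposited 1 number per spot and array, read here as the log2 ratio between dyes; the sources used here do not give its base, the scanner, or how background and normalization were handled. Without intensities, how far a spot stood above background is unknown, and the number of arrays limits the precision. Of the spots, 11138 carry 1 gene symbol in the platform annotation and 0 carry several, which makes 5539 genes; the IDs of all 34 members matched RefSeq assembly R64, used for names and neighbours. The spots of a gene were averaged, and replicate 3 was multiplied by -1 because its dyes were exchanged. Once turned, it correlated across genes with replicates 1 and 2 with r of 0.842 and 0.679. Each array was centred on its median over genes. Means were tested against 0, two-sided, by limma 3.58.1 (lmFit, then eBayes; R 4.3.3) (10.8 prior and 2 residual degrees of freedom), with Benjamini-Hochberg adjustment over all genes and a threshold of 0.05. The fit was tested on simulated data. All members were named, and from every other list at most 3 genes per direction past the threshold, by size of change. PET112, HER2, GTF1, GCN2, HRI1, RPR2, EFT2, HEF3, TEF1 and TEF2 were added once their values were known. The members and lists were chosen with earlier results of these data known. Promoters were not analysed here. Tables and figures used Python 3.11.15, pandas 2.3.3 and matplotlib 3.10.9. The alternatives were no centring, scaling, centring within 32 runs of 408 spots, a dye effect, single spots, leaving out 97 genes whose spots differed by over 1, robust eBayes, and leaving out each array.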

Additional observations from a re-analysis of the deposited data

How the results depend on the processing

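All 17 members that fell kept a negative mean under each of 11 alternatives, and 14 stayed past the threshold in all of them; the exceptions were ILS1, TYS1 and GRS1. The cytosolic or dual genes that fell numbered 14 to 16, with 0 that rose, and 1 mitochondrial gene fell throughout. With no centring the medians were -0.88 for cytosolic or dual and 0.17 for mitochondrial genes, and 603 genes fell against 1004. With a dye term fitted, 1 mitochondrial gene, NAM2, rose. With 1 array left out, the median of cytosolic or dual genes ranged from -0.99 to -0.88 and that of mitochondrial genes from 0.02 to 0.09. Their difference ranged from -1.08 to -0.91, the mitochondrial genes that rose from 0 to 1, all genes that rose from 412 to 939 and all that fell from 602 to 1071. Members near 0 turned sign. VAS1 had -0.0035 on the first spot, and between -0.040 and 0.19 with 1 array left out. GRS2 had -0.025 with centring within runs of spots, -0.0099 on the last spot, and between -0.17 and 0.33 with 1 array left out. MSM1 had between -0.058 and 0.29 with 1 array left out. The cause was not tested. Counts of the other lists under these alternatives were added after seeing the data. Each ratio already pairs treated with untreated RNA on 1 array, and the test against 0 uses these pairs, so no further block was fitted.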
